A study of Mus musculus with 72 samples.

Results

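Back-skin epidermis of mice whose clock factor BMAL1 was restored by K14-Cre was compared with epidermis of mice without BMAL1 at the third of 6 daily time points. The groups are RE (genotype Bmal1-stopFL/K14-Cre, titles 3RE1 to 3RE4) and KO (genotype Bmal1-stopFL, titles 3KO1 to 3KO4), with 4 libraries each. Both carry the stop cassette in the Bmal1 gene, which is named Arntl in the files. In RE, Cre under the keratin 14 promoter opens it in the epidermis and in other stratified epithelia, so that tissues without this promoter's activity stay as in KO. The main comparison uses 6 of these 8 libraries, out of 72 in the whole series, which are KO replicates 2, 3 and 4 and RE replicates 1, 3 and 4. Values of libraries are given below in that order. The libraries labelled KO replicate 1 and RE replicate 2 were left out because their clock genes lay at wild-type levels. Values with all 8 libraries are given for the counts, the described clock genes with a call and other described calls that move by over 1.5 times.

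All animals were C57BL/6 females of 8 weeks, kept in 12 h of light and 12 h of dark, and each library is 1 of 4 females per genotype and time point. K14-Cre mice without the cassette served as wild type (WT), which makes 18 groups in the series, and their 4 libraries of time point 3 are used here for levels only. The labels number the time points and give no clock hours. The design asks which daily transcription the epidermis keeps when other tissues have no clock.

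BMAL1 pairs with CLOCK or NPAS2, binds E-box sequences and turns on the Per and Cry genes, Nr1d1 and Nr1d2, Ciart and Dbp. PER and CRY proteins then block BMAL1, while the REV-ERB proteins made from Nr1d1 and Nr1d2 repress Arntl, Npas2, Cry1 and Nfil3 through a site that ROR proteins use to activate them. In the epidermis this clock is known for setting the time of DNA replication and of metabolism in stem cells.

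Reads in genes numbered 35177914 to 46767019 over the 8 libraries, with a read in 22363 to 23249 genes. Levels are in CPM, the reads of a gene scaled to a common library size, which do not correct for gene length, so levels are compared within a gene. The tissue matched its label by Krt5 and Krt14 (basal layer), at 5831 CPM or more and 2507 CPM or more in the 6 libraries, and by Krt1 and Krt10 (spinous layer), at 3959 CPM or more and 12112 CPM or more. Of the granular layer markers, Lor was at 4.01 to 6.92 CPM and Flg at 0.0235 CPM or less. The whole list of 23 granular layer and cornified envelope genes summed to 1147 to 1503 CPM in KO and 1138 to 1433 CPM in RE. In bulk RNA, fewer cells of a type cannot be told apart from less RNA per cell.

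Arntl (ENSMUSG00000055116, chromosome 7, 113207465 to 113314126, plus strand, GRCm38) is the gene that carries the stop cassette. It was at 29.9, 29.0 and 29.0 CPM in KO and at 68.7, 52.5 and 49.4 CPM in RE, so the groups did not overlap. The log2 difference was 0.96 ± 0.12 (SE, n = 3 against 3, edgeR quasi-likelihood test, adjusted p = 0.0194). With all 8 libraries it was 0.89 ± 0.21 and was not called (edgeR adjusted p = 0.28). Arntl kept its call without RE replicate 1, 3 or 4. It missed the threshold without KO replicate 2, 3 or 4 (edgeR adjusted p between 0.092 and 0.13). The files give 1 count for the whole gene and none per exon, so the KO level is no measure of intact transcript. The mean was 29.3 CPM in KO and 29.8 CPM in WT replicates 1, 3 and 4, so the level does not tell these apart. Because clock genes guided the choice of libraries, the gap between the 6 libraries is no check of their genotypes. The library labelled KO replicate 1 had 21.1 CPM of Arntl, 254 CPM of Nr1d1 and 133 CPM of Dbp. The library labelled RE replicate 2 had 30.6 CPM of Arntl, 265 CPM of Nr1d1 and 73.7 CPM of Dbp. Both lay among or near the WT libraries labelled replicates 1, 3 and 4, which held 25.7 to 34.2 CPM of Arntl, 287 to 341 CPM of Nr1d1 and 82.3 to 144 CPM of Dbp. The library labelled WT replicate 2 stood apart from these, with 64.4 CPM of Arntl, 84.7 CPM of Nr1d1 and 34.6 CPM of Dbp.

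Restoring BMAL1 in the epidermis went with 100 called genes at time point 3, of which 59 were higher and 41 lower in RE. They include the clock genes Nr1d1, Nr1d2, Per3 and Dbp among the rises and Npas2 and Cry1 among the falls. The 100 genes are 0.599% of 16688 tested, with 0.354% called higher and 0.246% called lower (edgeR, adjusted p under 0.05). In each of them the RE and KO libraries did not overlap, which was so for 14.8% of all genes tested. Of the 100, 56 differed by more than 2-fold (38 higher, 18 lower), 92 are protein coding, and 1568 genes (9.4%) had an unadjusted p under 0.05.

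The number of calls turned on single libraries. With all 8 libraries 3 genes were called (0.018% of 16658), which are Serpinb6d, Serpina3j and Acacb, while 1310 (7.86%) had an unadjusted p under 0.05. Putting back the library labelled RE replicate 2 gave 100 calls, of which 68 were among the main 100, and putting back the one labelled KO replicate 1 gave 1. The calls came to 33, 32 and 23 without KO replicate 2, 3 or 4, to 46 and 54 without RE replicate 1 or 4, and to 130 without RE replicate 3. In all 6 of those fits 20 genes were called. All 6 tested 99 of the 100 genes, which kept their direction, and the other, Lrat, fell below the filter without RE replicate 3 or 4 and kept it where tested. With all 8 libraries 99 of 99 tested kept it, and their median absolute log2 difference was 0.84 against 1.15 in the main comparison. The choice of libraries rests on clock genes and on genes that separate the genotypes, so the clock values below are a description and do not stand as independent evidence.

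**Figure D1:**
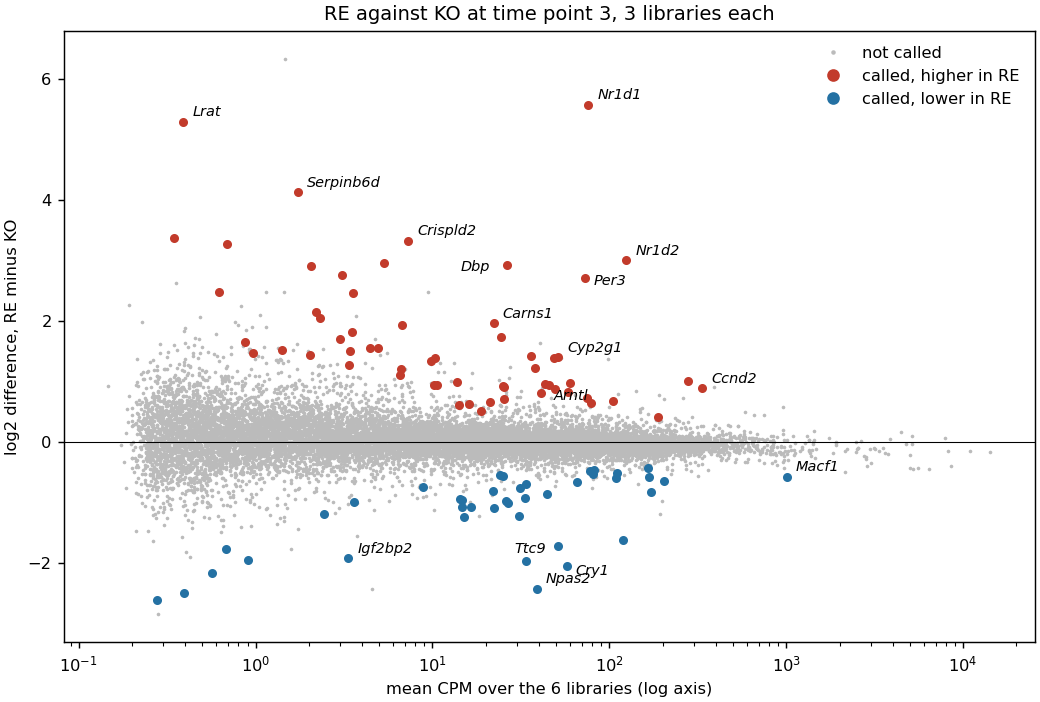
Each point is 1 of the 16688 genes tested, with its mean CPM over the 6 libraries on a log axis and its log2 difference between RE and KO (positive: higher in RE). The 59 genes called higher and the 41 called lower are coloured, and Nr1d1 at 5.57 and Npas2 at -2.43 stand far from the body of points around 0.

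Clock genes, which guided the choice of libraries, made up 10 of the 100. Beside 0.599% of all genes tested, 10 of 20 tested members of 2 clock lists were called, with 7 higher and 3 lower. The largest rise among them was that of Nr1d1 (ENSMUSG00000020889, chromosome 11, 98767932 to 98775333, minus strand), which encodes REV-ERB alpha. It was at 2.74, 2.89 and 3.76 CPM in KO and at 125, 147 and 174 CPM in RE. Every RE library held far more than any of the 3 KO libraries, and the log2 difference was 5.57 ± 0.17 (adjusted p = 5.19e-06). Nr1d2, which encodes REV-ERB beta, was at 28.7, 27.7 and 26.2 CPM in KO and at 175, 243 and 247 CPM in RE. RE replicate 1 was the lowest of the RE libraries and still lay above all 3 KO libraries, with a log2 difference of 3.01 ± 0.13 (adjusted p = 3.83e-05). With all 8 libraries the differences were 1.45 ± 1.25 for Nr1d1 (adjusted p = 0.812) and 1.26 ± 0.76 for Nr1d2 (adjusted p = 0.72).

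The other rises were in Per3, Ciart, Dbp and Tef. Per3, a member of the period family, was at 19.6, 19.1 and 18.7 CPM in KO and at 93.6, 170.02 and 113 CPM in RE (log2 difference 2.72 ± 0.20, adjusted p = 0.00118). Dbp, a PAR bZIP factor that activates genes through D-boxes, was at 5.30, 6.23 and 7.03 CPM in KO and at 27.2, 74.9 and 38.4 CPM in RE (2.92 ± 0.35, adjusted p = 0.0123). The RE libraries spread widely for Dbp, and the lowest was again RE replicate 1. Tef, a related PAR bZIP factor, went from 212, 174 and 172 CPM to 286, 459 and 374 CPM (1.01 ± 0.16, adjusted p = 0.0396). Ciart, which encodes the repressor CHRONO, went from 0.733, 1.00 and 0.700 CPM to 2.28, 4.39 and 4.07 CPM (2.15 ± 0.30, adjusted p = 0.0244). Neither group overlapped the other in these 4 genes, and with all 8 libraries their differences were between 0.43 (Ciart) and 0.98 (Per3) and were not called.

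Among the clock genes that were lower in RE are known targets of REV-ERB and ROR proteins. Npas2, the partner that can replace CLOCK, was at 67.5, 67.04 and 61.5 CPM in KO and at 18.1, 7.81 and 10.5 CPM in RE (-2.43 ± 0.26, adjusted p = 0.00737). Cry1, a repressor of BMAL1, was at 101, 90.5 and 86.1 CPM in KO and at 22.0, 23.9 and 20.7 CPM in RE (-2.05 ± 0.09, adjusted p = 3.76e-05). Both kept much of their difference with 8 libraries, at -2.21 for Npas2 and -1.76 for Cry1, without a call (adjusted p = 0.387 and 0.297). Nr1d1 and Thra, Dbp and Sphk2, and Npas2 and Gm20428 overlap on opposite strands, and reads of such a pair cannot be told apart without a known strand setting. Per3 overlaps Camta1 on the same strand, where a strand setting would not separate them.

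The other 10 clock genes tested were not called. The activators Clock, Rora and Arntl2 differed by -0.35 ± 0.09 (adjusted p = 0.194), 0.12 ± 0.11 (adjusted p = 0.819) and 0.09 ± 0.08 (adjusted p = 0.817). Clock was at 149 to 182 CPM in KO and at 123 to 139.8 CPM in RE, so its groups did not overlap although it missed the threshold. Per2, a core repressor, was at 18.03, 27.8 and 13.02 CPM in KO and at 15.1, 32.7 and 40.3 CPM in RE, and the groups overlapped (0.59 ± 0.36, adjusted p = 0.682). For Per1 the difference was 0.16 ± 0.19 (adjusted p = 0.867), and it was -0.04 with all 8 libraries and -0.14 without RE replicate 4. Cry2 stood at 88.5 to 101 CPM in KO and at 99.8 to 110.5 CPM in RE (0.11 ± 0.08, adjusted p = 0.726). Bhlhe41, which encodes the repressor DEC2, was at 1.28 to 1.92 CPM in KO and at 2.41 to 4.54 CPM in RE (1.04 ± 0.27, adjusted p = 0.194). Bhlhe40, Hlf and Nfil3 differed by 0.72, 0.55 and -0.61 with groups that overlapped (adjusted p = 0.572, 0.419 and 0.676).

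**Figure D2:**
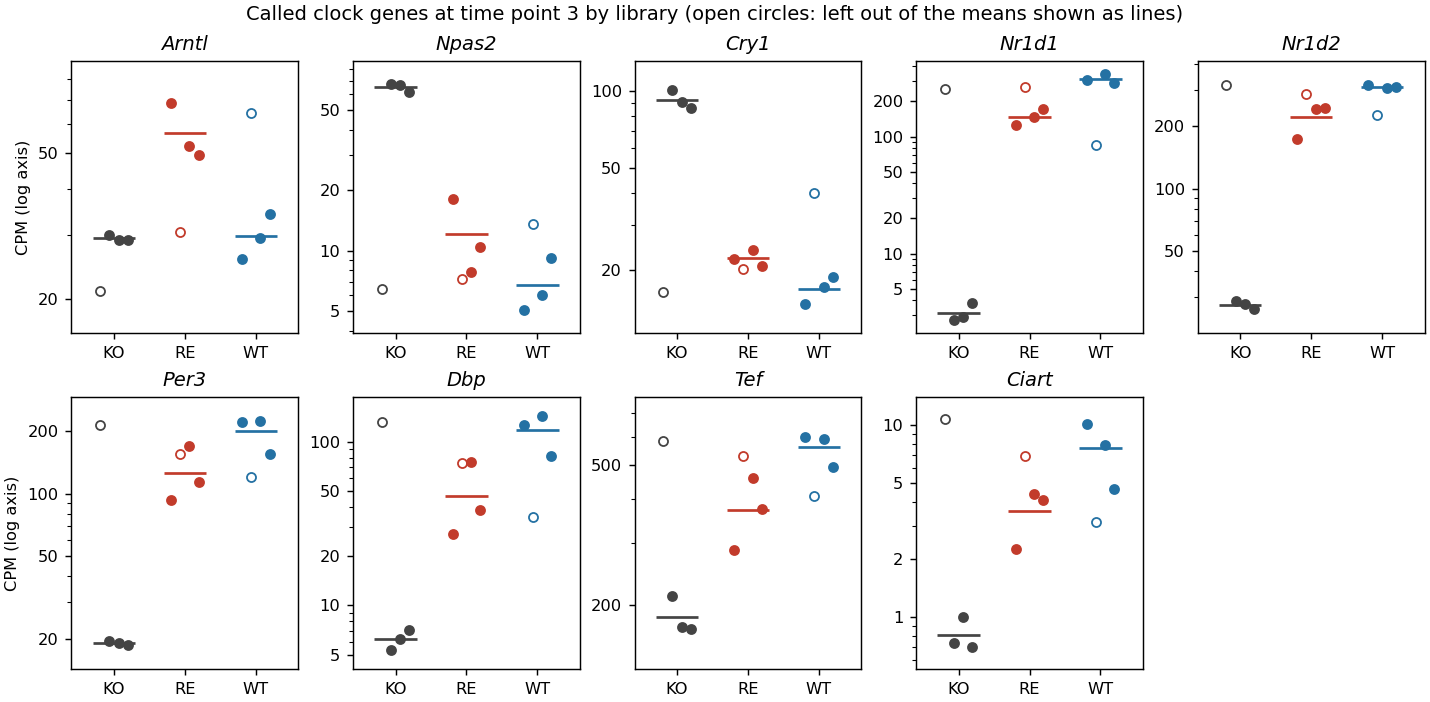
CPM (log axis, scaled to each gene) of 9 called clock genes in the 4 KO, 4 RE and 4 WT libraries of time point 3. Filled circles entered the comparison or the WT mean, open circles are the libraries labelled KO replicate 1, RE replicate 2 and WT replicate 2, and lines are means of the filled circles. The open KO and RE circles sit near the filled WT circles in most panels, as for Nr1d1 at 254 and 265 CPM.

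In levels, RE lay between KO and WT for several of these genes. Means of Nr1d1 were 3.13 ± 0.55 CPM in KO, 149 ± 25 CPM in RE (SD, n = 3) and 312 ± 27 CPM in the WT replicates 1, 3 and 4. Those of Dbp were 6.19 ± 0.861, 46.8 ± 24.9 and 118 ± 31.8 CPM. For Npas2 the order was turned, with 65.4 ± 3.3 CPM in KO, 12.1 ± 5.3 CPM in RE and 6.76 ± 2.15 CPM in WT. Arntl was highest in RE, at 56.9 ± 10.4 CPM, and stood at 29.8 ± 4.25 CPM in WT, close to the 29.3 ± 0.5 CPM of KO. The WT values are a description without a test.

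Promoter sequences of 4 called clock genes and of Crispld2 are shown as examples of windows that hold a motif of the clock loop. The windows run from 250 bases before to 50 bases after the start of the gene, in GRCm38.p6 from RefSeq, and 64 of the 100 called genes have one. The motifs searched on both strands were the E-box CACGTG, the REV-ERB and ROR element TAGGTCA and the D-box TTANGTAA, which are given in capitals below. Ciart lies on the minus strand and its window (chr3:95882179-95882478) holds the E-box at -116, -58 and -44 from the start. Crispld2, which had the largest called rise outside the clock lists among genes with a mean of at least 5 CPM, is on the plus strand (chr8:119992188-119992487) with an E-box at -235. Per3 is on the minus strand (chr4:151044616-151044915) with a D-box at -205 and -158. Arntl is on the plus strand (chr7:113207261-113207560) with the REV-ERB and ROR element at 31 after the start. Cry1, which fell, is on the minus strand (chr10:85185005-85185304) with an E-box at -60.
Ciart: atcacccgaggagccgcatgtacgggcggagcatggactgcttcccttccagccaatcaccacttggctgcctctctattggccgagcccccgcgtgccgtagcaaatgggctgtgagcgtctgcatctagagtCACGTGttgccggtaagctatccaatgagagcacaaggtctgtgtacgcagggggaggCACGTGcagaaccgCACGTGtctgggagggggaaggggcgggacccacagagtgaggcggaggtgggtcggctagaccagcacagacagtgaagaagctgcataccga
Crispld2: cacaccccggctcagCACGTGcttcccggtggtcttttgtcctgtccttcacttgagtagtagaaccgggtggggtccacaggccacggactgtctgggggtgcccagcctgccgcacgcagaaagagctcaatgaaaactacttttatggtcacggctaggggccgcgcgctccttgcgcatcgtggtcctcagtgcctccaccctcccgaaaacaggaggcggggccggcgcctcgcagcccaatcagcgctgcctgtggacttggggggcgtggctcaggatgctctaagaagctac
Per3: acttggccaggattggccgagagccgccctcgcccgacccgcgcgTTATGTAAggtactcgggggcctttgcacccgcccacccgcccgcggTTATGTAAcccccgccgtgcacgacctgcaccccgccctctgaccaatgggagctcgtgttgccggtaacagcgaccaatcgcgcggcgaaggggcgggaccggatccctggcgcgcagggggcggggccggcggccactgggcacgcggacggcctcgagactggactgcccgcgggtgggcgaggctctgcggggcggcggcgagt
Arntl: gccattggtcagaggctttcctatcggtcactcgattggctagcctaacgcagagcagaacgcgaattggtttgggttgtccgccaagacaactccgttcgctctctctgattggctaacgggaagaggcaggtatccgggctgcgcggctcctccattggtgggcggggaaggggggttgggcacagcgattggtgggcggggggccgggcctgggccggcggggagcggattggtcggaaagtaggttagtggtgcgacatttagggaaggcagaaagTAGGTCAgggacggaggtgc
Cry1: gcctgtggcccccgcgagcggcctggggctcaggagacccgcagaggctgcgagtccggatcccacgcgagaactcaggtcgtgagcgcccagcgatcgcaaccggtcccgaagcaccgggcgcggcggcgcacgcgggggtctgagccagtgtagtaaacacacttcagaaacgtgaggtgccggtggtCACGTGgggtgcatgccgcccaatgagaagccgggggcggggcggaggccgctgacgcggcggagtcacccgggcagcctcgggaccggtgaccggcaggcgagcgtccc

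An E-box stood in the windows of 6 of 35 genes called higher (17.1%), of 3 of 29 called lower (10.3%) and of 8.09% of all 27025 genes with a window. Beside Ciart and Crispld2, the genes called higher with one were Tef, Mgll, Pdxk and Pnpla5, and those called lower were Cry1, Ttk and Bcl6. The REV-ERB and ROR element was found in 1 gene in each direction (Arntl and Leo1), against 2.97% of all genes with a window. The D-box was likewise found in 1 (Per3 and Macf1), against 2.72%. The windows of Nr1d1, Nr1d2, Dbp and Npas2 held none of the 3 motifs. These matches describe the letters of the windows and are no measure of binding.

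Outside the clock lists 90 genes were called. With a mean of at least 5 CPM, the 4 largest rises among them were those of Crispld2, Arsi, Carns1 and the receptor gene Ngfr, which is described with the receptors. Crispld2, which encodes a secreted protein, was at 0.863, 1.03 and 2.07 CPM in KO and at 12.3, 6.90 and 20.5 CPM in RE (3.33 ± 0.46, adjusted p = 0.0244). Arsi, an arylsulfatase, was at 1.27, 1.06 and 1.27 CPM in KO and at 8.34, 8.76 and 11.1 CPM in RE (2.96 ± 0.18, adjusted p = 0.000375). In the library labelled KO replicate 1 both stood on the side of RE, at 7.91 CPM for Crispld2 and 12.9 CPM for Arsi. Carns1, which makes the dipeptide carnosine, was at 8.50 to 9.45 CPM in KO and at 26.7 to 49.0 CPM in RE (1.96 ± 0.22, adjusted p = 0.0082), and the overlapping antisense gene Gm17552 was called with it (1.94 ± 0.27, adjusted p = 0.0265). Rsad1, of the radical SAM enzymes, was at 5.28 to 5.91 CPM in KO and at 13.7 to 15.8 CPM in RE (1.39 ± 0.12, adjusted p = 0.00282). With all 8 libraries the differences were 2.07 for Crispld2, 1.20 for Arsi and 0.84 for Rsad1, without a call (adjusted p = 0.471, 0.713 and 0.62). Gm17552 was then at 1.25, also without a call (adjusted p = 0.491).

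Serpina3j, Acacb and Serpinb6d were called both with the 6 and with all 8 libraries, but not in each alternative. Serpina3j, of the serine protease inhibitor family, was at 20.1, 22.3 and 16.3 CPM in KO and at 49.6, 56.8 and 49.96 CPM in RE (1.41 ± 0.12, adjusted p = 0.00279). Its libraries labelled KO replicate 1 and RE replicate 2 were at 22.5 and 37.2 CPM, each on the side of its label, and the difference over 8 libraries was 1.26 ± 0.14 (adjusted p = 0.0253). Acacb, the mitochondrial acetyl-CoA carboxylase that restrains fatty acid oxidation, was at 17.9, 17.5 and 16.3 CPM in KO and at 31.1, 34.6 and 32.3 CPM in RE (0.92 ± 0.08, adjusted p = 0.00317, and 0.79 ± 0.10 over 8 libraries, adjusted p = 0.0452). Serpinb6d, another protease inhibitor gene, was low in KO at 0.0863, 0.250 and 0.233 CPM and stood at 2.80, 2.93 and 4.07 CPM in RE. Its difference was 4.13 ± 0.36 (adjusted p = 0.00295) and 3.54 ± 0.37 over 8 libraries (adjusted p = 0.0253). None of the 3 was called with the spread shared by all 18 groups (adjusted p = 0.411 for Serpina3j, 0.0807 for Acacb and 0.0881 for Serpinb6d), and with the library labelled KO replicate 1 put back Acacb (0.0635) and Serpinb6d (0.0509) missed the threshold. Serpina3 and Serpinb6 genes lie in families of close copies, so how reads were shared among copies is uncertain for them.

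Not all genes followed the pattern of the clock in the libraries left out. Of the 100 called genes, 71 lay nearer the RE mean than the KO mean in the library labelled KO replicate 1, and 29, with Cyp2g1 and Lrat among them, nearer the KO mean (on log2 of CPM plus 0.5). Outside the clock lists the first number was 62 of 90. In the library labelled RE replicate 2, 79 of the 100 lay nearer the RE mean and 21 nearer the KO mean. Lrat, the enzyme that esterifies retinol, was at 0 to 0.0278 CPM in the 3 KO libraries and at 0.247 to 1.27 CPM in RE, with 0 CPM and 0.387 CPM in the libraries labelled KO replicate 1 and RE replicate 2. At this depth the KO value of Lrat rests on single reads.

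Several enzymes of lipid and xenobiotic metabolism were called higher, chosen here after their values were seen. Cyp2g1, a cytochrome P450, was at 26.1, 32.6 and 26.1 CPM in KO and at 64.1, 75.7 and 83.6 CPM in RE (1.40 ± 0.12, adjusted p = 0.0031). Fa2h, which hydroxylates fatty acids for sphingolipids, was at 20.5, 27.5 and 20.9 CPM in KO and at 52.4, 56.6 and 50.5 CPM in RE (1.21 ± 0.12, adjusted p = 0.00583). Cers4, a ceramide synthase, was at 36.0 to 47.2 CPM in KO and at 75.4 to 81.4 CPM in RE (0.97 ± 0.11, adjusted p = 0.0085). The groups lay well apart in all 3 genes. Ces1d, a carboxylesterase, was at 4.46 to 6.40 CPM in KO and at 12.5 to 15.8 CPM in RE (1.34 ± 0.16, adjusted p = 0.0123). Acoxl, an acyl-CoA oxidase-like gene, was at 3.36 to 4.42 CPM in KO and at 6.92 to 10.6 CPM in RE (1.21 ± 0.20, adjusted p = 0.0444). Mgll, which cleaves monoacylglycerols, rose by less, from 76.0 to 84.4 CPM in KO to 114 to 145 CPM in RE (0.68 ± 0.10, adjusted p = 0.0279). At lower levels the cytochrome P450 genes Cyp2f2 (2.46 ± 0.34, adjusted p = 0.0252), Cyp2a4 (3.27 ± 0.50, adjusted p = 0.0345) and Cyp1a1 (2.05 ± 0.33, adjusted p = 0.0424) were called too, and Cyp2a4 has a close paralog. None of these 9 genes was called with all 8 libraries, and Ces1d moved to 0.83 (adjusted p = 0.547). With the spread shared by all 18 groups none was called either, with an adjusted p of 0.868 for Cyp2g1 and 0.759 for Fa2h.

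Some sebaceous gland markers were called higher as well. Of 12 tested, 4 were called higher and none lower, while 0.354% of all genes tested were called higher. The median log2 difference of the 12 was 0.80 beside 0.006 over all genes tested. Mgst1, a glutathione transferase of membranes, was at 29.5, 33.0 and 31.4 CPM in KO and at 53.2, 59.6 and 67.2 CPM in RE (0.94 ± 0.10, adjusted p = 0.00715). Far2, which reduces fatty acyl-CoA for wax esters, was at 26.7 to 34.0 CPM in KO and at 45.6 to 58.6 CPM in RE (0.81 ± 0.12, adjusted p = 0.0318). Soat1, which esterifies cholesterol, and Mc5r, a melanocortin receptor of sebaceous cells, were the other 2 (0.71 ± 0.11, adjusted p = 0.0345, and 1.44 ± 0.21, adjusted p = 0.0314). The defining markers differed among themselves. Scd3 was at 27.6 to 33.0 CPM in KO and at 37.3 to 56.6 CPM in RE without a call (0.59 ± 0.15, adjusted p = 0.191), and Awat2 was at 2.52 to 4.17 and at 2.80 to 3.39 CPM (-0.15 ± 0.22, adjusted p = 0.898). The summed level of the 13 markers was 333 to 386 CPM in KO and 395 to 473 CPM in RE, and 374 and 316 CPM in the libraries labelled KO replicate 1 and RE replicate 2. How far the share of gland tissue enters the lipid results was not tested. None of the 12 was called with all 8 libraries or with the spread shared by all 18 groups of the series, where the adjusted p of the 4 lay between 0.411 and 0.986. With all 8 libraries the difference of Soat1 was 0.34 (adjusted p = 0.753). DESeq2 called 8 of the 12 and limma-voom 4.

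**Figure D3:**
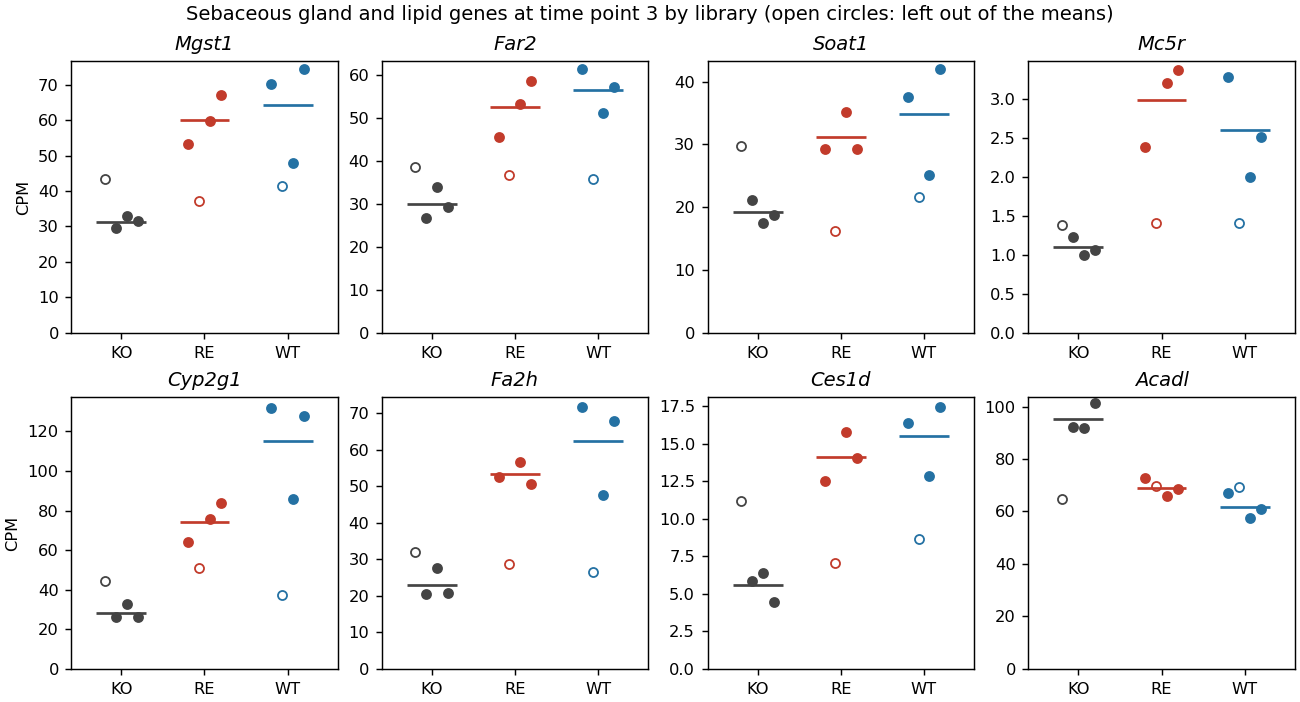
CPM (axis from 0) of 4 sebaceous gland markers (Mgst1, Far2, Soat1, Mc5r), 3 lipid genes (Cyp2g1, Fa2h, Ces1d) and Acadl in the KO, RE and WT libraries of time point 3, with lines at the means of filled circles and open circles for libraries left out. Filled RE circles lie above filled KO circles in the first 7 panels and below them for Acadl. The open RE circle lies at or near the KO level for Soat1 (16.2 CPM), Mc5r (1.41 CPM), Fa2h (28.8 CPM) and Ces1d (7.08 CPM). It lies nearer the KO than the RE circles for Mgst1 (37.1 CPM) and Far2 (36.8 CPM). For Cyp2g1 (51.2 CPM) it lies between the groups, and for Acadl (69.7 CPM) among the RE circles.

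A pair of lipid enzymes was called lower in RE. Acadl, which oxidises long-chain fatty acids, was at 92.1, 91.9 and 101 CPM in KO and at 72.6, 65.8 and 68.6 CPM in RE (-0.46 ± 0.08, adjusted p = 0.0458). It was the 1 call among 14 fatty acid oxidation genes tested, whose median was -0.01. Agpat3, an acyltransferase of phospholipid synthesis, was at 194 to 242 CPM in KO and at 111 to 137 CPM in RE (-0.82 ± 0.11, adjusted p = 0.0223).

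Further falls were in genes of unlike roles. Ttc9, a tetratricopeptide repeat gene, was at 76.3, 82.4 and 76.4 CPM in KO and at 24.8, 26.2 and 20.1 CPM in RE (-1.72 ± 0.11, adjusted p = 0.000375). Abhd12b, of the alpha/beta hydrolase family, was at 38.0 to 49.0 CPM in KO and at 16.6 to 20.3 CPM in RE (-1.23 ± 0.12, adjusted p = 0.00408). In both genes the 2 libraries left out stood with RE, at 16.9 and 15.0 CPM for Ttc9 and at 15.5 and 15.0 CPM for Abhd12b. F3, the tissue factor that starts blood clotting, was at 18.6 to 20.6 CPM in KO and at 6.72 to 10.8 CPM in RE (-1.07 ± 0.17, adjusted p = 0.0442). Slc46a2, Slco2b1 and Kcnip3, which encode 2 transporters and a potassium channel interacting protein, fell by 1.08, 0.86 and 0.97 on the log2 scale. The RNA-binding protein gene Igf2bp2 was at 4.81 to 5.74 CPM in KO and at 0.992 to 1.91 CPM in RE (-1.92 ± 0.24, adjusted p = 0.0173). None of these 7 genes was called with all 8 libraries (adjusted p between 0.224 and 0.62).

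Receptors and signalling genes were called in both directions. Il18r1, a chain of the interleukin 18 receptor, was at 27.3, 35.9 and 27.2 CPM in KO and at 13.7, 14.2 and 14.6 CPM in RE (-1.09 ± 0.12, adjusted p = 0.0101). Ifngr1, a chain of the interferon gamma receptor, was at 194 to 207 CPM in KO and at 122 to 145 CPM in RE (-0.58 ± 0.08, adjusted p = 0.0239). Calcb, which encodes a calcitonin gene-related peptide, was lower as well (-0.95 ± 0.14, adjusted p = 0.0318). Mrgprb2, a receptor of mouse mast cells, was at 17.7 to 24.95 CPM in KO and at 8.15 to 10.2 CPM in RE (-1.25 ± 0.15, adjusted p = 0.0123). It lies in a family of close copies, and the mast cell genes Cpa3, Mcpt4, Tpsb2 and Cma1 were at 0.0778 CPM or less in each of the 6 libraries. Ngfr, the low-affinity receptor of neurotrophins, was higher in RE, at 32.2 to 41.6 CPM against 7.42 to 16.6 CPM (1.73 ± 0.25, adjusted p = 0.0311). Deptor, an inhibitor of the mTOR kinase, was at 33.1 to 38.0 CPM in KO and at 59.1 to 67.6 CPM in RE (0.87 ± 0.08, adjusted p = 0.00403). Over all 8 libraries none of these 6 genes was called, and the difference was -0.23 for Ifngr1 and 0.78 for Ngfr (adjusted p = 0.808 and 0.734).

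Several cell cycle regulators were called. The lists of replication and of mitosis held no call, which is common for 26 genes at the share of 0.599% called over all genes tested. Cdc25b, a phosphatase that activates cyclin-dependent kinases, was at 30.8, 21.6 and 28.3 CPM in KO and at 80.0, 64.3 and 66.6 CPM in RE (1.39 ± 0.14, adjusted p = 0.00583). Its neighbour Spef1 overlaps it on the other strand and was also called (0.63 ± 0.09, adjusted p = 0.0318). Ccnd1 and Ccnd2, which encode D-type cyclins, rose from 53.0 to 62.0 CPM to 90.0 to 97.3 CPM (0.72 ± 0.08, adjusted p = 0.00719) and from 224 to 252 CPM to 368 to 506 CPM (0.89 ± 0.11, adjusted p = 0.0175). E2f2, a factor of S phase entry, and Ttk, a kinase of the mitotic checkpoint, were lower in RE (-0.76 ± 0.10, adjusted p = 0.0223, and -0.66 ± 0.11, adjusted p = 0.0444). None of these 6 genes held its call over all 8 libraries, where the difference was 0.77 for Cdc25b, 0.34 for Ccnd1 and 0.59 for Ccnd2 (adjusted p = 0.625, 0.786 and 0.673). Of 26 S phase genes tested none was called by edgeR, limma-voom or DESeq2, and 1 had an unadjusted p under 0.05 in edgeR. In 25 of the 26 the difference lay above 0, with a median of 0.33. Their summed level was 472 to 724 CPM in KO and 560 to 962 CPM in RE, so the groups overlapped. Of 26 genes of G2 and mitosis none was called by these tools and none had an unadjusted p under 0.05 in edgeR, with 23 below 0 and a median of -0.14. RE replicate 3 had the lowest sum of these mitotic genes, at 326 CPM, and the other 2 RE libraries were at 825 and 900.1 CPM, against 630 to 937 CPM in KO.

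The rest of the lists held few calls. Of 37 lists with a tested member, 8 held a called gene, and 19 of the 100 called genes belong to a list. Prdx6, a peroxiredoxin, was the 1 call among 18 genes of peroxide defence, at 159 to 166 CPM in KO and at 206 to 221 CPM in RE (0.41 ± 0.07, adjusted p = 0.0473). Krt2, a keratin of upper epidermal layers, was the 1 call among 12 spinous genes, at 2.25 to 2.85 CPM in KO and at 4.85 to 8.73 CPM in RE (1.55 ± 0.24, adjusted p = 0.0389), while the median of that list was -0.15. Sostdc1, a secreted antagonist of BMP and Wnt signals, was the 1 call among 13 hair follicle genes (-0.60 ± 0.10, adjusted p = 0.0442). No call fell among 15 basal, 18 granular and 16 barrier lipid genes, 25 genes of oxidative phosphorylation, 16 of sterol synthesis or 21 immediate early genes. Lists of these sizes often hold none at the share of 0.599% called over all genes tested. The medians of these 6 lists lay between -0.19 (granular) and 0.09 (sterol synthesis). By limma-voom none of these lists held a call either, by DESeq2 each held 0 or 1, and at an unadjusted p under 0.05 in edgeR between 0 and 4 genes of each passed.

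**Figure D4:**
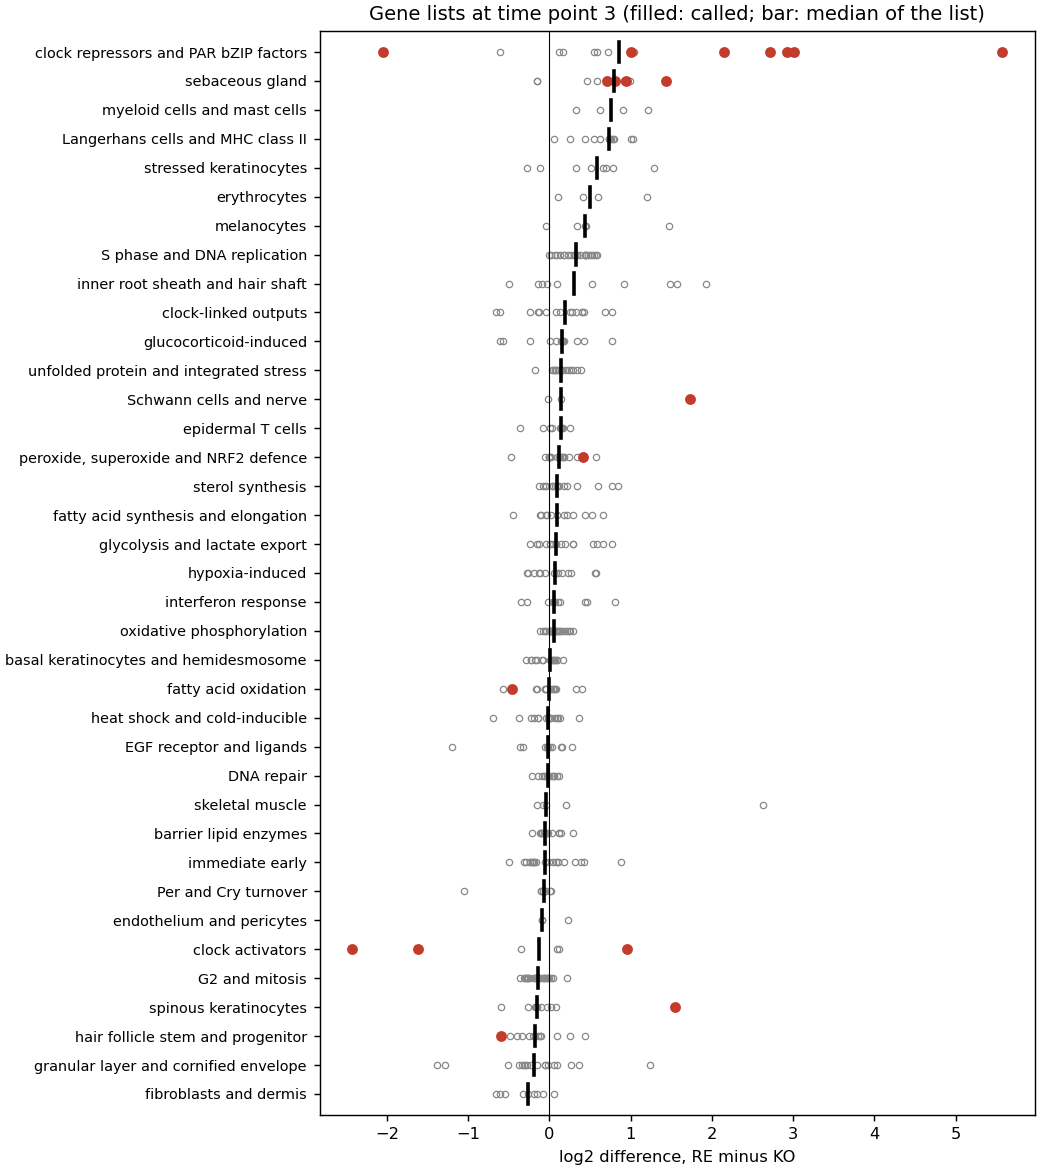
Each row is 1 of the 37 lists with tested genes, each circle a gene at its log2 difference between RE and KO, filled where called, and the bar is the median of the list. Filled circles sit mainly in the clock lists and the sebaceous gland list, and the medians run from -0.26 (fibroblasts and dermis) to 0.86 (clock repressors and PAR bZIP factors).

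Markers of other cells in the epidermis differed between libraries. All 13 Langerhans cell genes lay above 0, with a median of 0.74, and none was called by edgeR, limma-voom or DESeq2 or had an unadjusted p under 0.05 in edgeR. Their summed level was 337, 220.5 and 185 CPM in KO and 319, 227 and 516 CPM in RE, so the groups overlapped and RE replicate 4 was the highest. Cd207, the marker langerin, was at 14.1, 7.12 and 4.10 CPM in KO and at 12.2, 5.26 and 33.4 CPM in RE. Summed levels of the 6 libraries did not overlap for 5 lists that were higher and 6 that were lower in RE, out of 38, beside 14.8% of single genes. Among cell types, these were sebaceous gland (above), myeloid and mast cells (10.8 to 11.8 CPM in KO, 14.9 to 20.4 CPM in RE) and Schwann cells (128 to 141 and 169 to 175 CPM, of which Ngfr is a part) on the higher side. On the lower side were hair follicle stem cells (1936 to 1986 and 1484 to 1838 CPM) and fibroblasts (99.0 to 111 and 53.8 to 97.0 CPM). The library labelled KO replicate 1 lay inside or beyond the RE range for myeloid and mast cells (15.6 CPM), Schwann cells (187 CPM) and fibroblasts (78.3 CPM), so these groups overlapped over all 8 libraries, as did those of sebaceous gland. For hair follicle stem cells it was at 2484 CPM, and RE replicate 2 at 1885 CPM, so the groups stayed apart. The Schwann cell genes Sox10, S100b and Ncam1 were at 0.306 CPM or less, and Ly6g and Cpa3 were at 0 in all 6 libraries. The part of these cells in the called genes was not tested.

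The same difference was measured in other mice at the other 5 time points, with 4 KO and 4 RE libraries each and no library in common with time point 3. Of the 100 genes, 91 of 97 tested had the same direction at time point 1, 98 of 98 at time point 2, 93 of 99 at time point 4, 94 of 96 at time point 5 and 96 of 98 at time point 6. Over all genes the share with the same direction as at time point 3 was 65.0%, 62.2%, 60.0%, 58.6% and 63.5%. Of 95 genes tested throughout, 85 had 1 direction at all 6 time points, against 18.3% of the 15920 genes tested at all 6. The medians of the 59 genes called higher were 0.56, 0.90, 0.82, 1.18 and 0.86 at time points 1, 2, 4, 5 and 6, and those of the 41 called lower were -0.56, -0.77, -0.87, -0.63 and -0.77. At time point 3 they were 1.40 and -0.97, where the genes had been chosen.

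**Figure D5:**
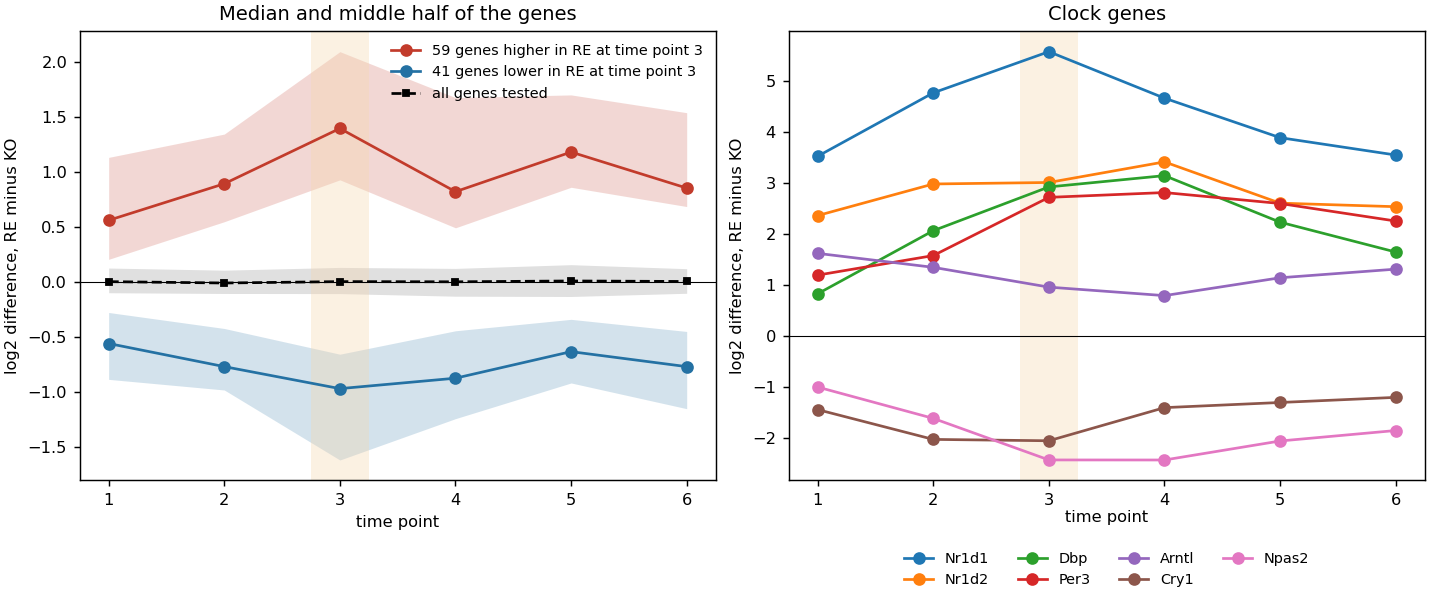
Log2 difference between RE and KO at each of the 6 time points, with time point 3 shaded. Left, the median (line) and middle 50% (band) of the 59 genes called higher, the 41 called lower and all genes tested at time point 3, the first 2 staying on their side of 0 throughout; right, 7 clock genes, with Nr1d1 between 3.52 and 5.57.

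Calls elsewhere were fewer or more depending on the time point. RE and KO differed in 7 genes at time point 1 (0.042% of 16663), in 52 at time point 2 (0.313%), in 453 at time point 4 (2.74%) and in 303 at time point 6 (1.82%). At time point 5 no gene was called by edgeR or limma-voom, and 91 were called without RE replicate 3. Of the 100 genes, 7 were called in the same direction at time point 1, 33 at time point 2, 53 at time point 4 and 52 at time point 6. At time point 5 it was 0, and 30 without RE replicate 3. Nr1d1, Nr1d2, Per3, Ttc9 and Cdc25b were among those called at 4 other time points, and 33 genes at no other. Among these 33 were the sebaceous gland markers Mgst1, Far2, Soat1 and Mc5r, and Cyp2g1, Fa2h, Cers4, Carns1, Bcl6 and Ifngr1.

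The clock genes give independent values there. Nr1d1 differed by 3.52, 4.77, 4.66, 3.89 and 3.55 at time points 1, 2, 4, 5 and 6 (adjusted p = 0.020, 4.0e-05, 6.8e-05, 0.054 and 0.00014). Dbp differed by 0.83, 2.06, 3.14, 2.23 and 1.64, with calls at time points 2 and 4 (adjusted p = 0.0030 and 0.0067). Both were higher in RE at each time point. Npas2 differed by -1.002, -1.62, -2.43, -2.06 and -1.85, with calls at time points 2, 4 and 6. Cry1 differed by -1.44, -2.03, -1.41, -1.30 and -1.20, with calls at the same 3 time points. Arntl itself differed by 1.62 at time point 1 and by 0.79 at time point 4, and the 0.96 of time point 3 lay in between.

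Whether a difference is particular to time point 3 was tested against the mean difference of the other 5 time points. No gene passed by edgeR (0 of 18340, with 288, or 1.57%, at an unadjusted p under 0.05) or by limma-voom (0, with 326). For Nr1d1 the difference at time point 3 exceeded the mean of the others by 1.49 ± 0.43 (edgeR adjusted p = 1.0), and with all 48 KO and RE libraries the change was -2.63. Bcl6, a transcriptional repressor, was at 282, 226 and 239 CPM in KO and at 149, 154 and 171 CPM in RE at time point 3 (-0.65 ± 0.10, adjusted p = 0.031). Elsewhere it differed by between -0.16 and 0.03, and the change at time point 3 was -0.61 ± 0.20 (edgeR adjusted p = 1.0). Bcl6, Ccnd1, Ccnd2, Soat1, Ifngr1, Serpina3g, Panx3, Dlc1 and Gm5538 were among the 10 genes that changed sign at 1 or more other time points. For Ccnd1 the differences were -0.20, 0.04, 0.48, -0.35 and -0.01 at the other time points.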

How the data were processed

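RNA-seq was made from dispase-separated interfollicular epidermis with TRIzol extraction, according to the protocols in the labels. Each deposited file gives the raw counts of reads per gene in 1 library, which the authors did not normalize. Reads were trimmed, aligned and counted with tools among which Trimmomatic, TopHat2 2.1.1 and HTSeq are listed, with the builds mm10 and GRCm38, per the submitters' processing notes. Parameters, library kit and use of strand are not stated there. HTSeq summary lines were left out of library sizes. Reads in no gene were 15.5% to 17.6% and ambiguous reads 1.34% to 1.49% of a library. Reads with several alignments were listed at 0, so genes with near-identical copies are uncertain. Of 46078 genes, 45229 were matched by identifier to GENCODE M21, and the other 849 held at most 0.0833% of reads. Of the 100 called genes, 46 overlap another gene.

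The tests used edgeR 4.0.16 under R 4.3.3 (filterByExpr, TMM scaling, glmQLFit and glmQLFTest, Benjamini-Hochberg adjustment over all genes tested, threshold 0.05). Each comparison was fitted to its own 2 groups, and the change at time point 3 to the 12 KO and RE groups without the 2 libraries left out. An adjusted p that is not named otherwise is from edgeR. CPM values use TMM-scaled library sizes over all 72 libraries. DESeq2 1.42.0 and limma 3.58.1 (voom) were alternatives. A depth of 35177914 reads or more per library limits mainly the genes under 1 CPM. The p-values measure the spread between libraries of single mice, and an exact permutation test of 3 against 3 could not go below p = 0.1.

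The comparison, the 2 libraries left out and the 38 lists (526 genes, 468 tested, 57 below the filter, 1 without a match) were chosen with earlier results of these data known. Genes named follow a rule: members of both clock lists, the 15 largest protein-coding rises and falls with a call, at least 5 CPM and groups that do not overlap, up to 4 members of smallest p per list, and genes of smallest p for the change at time point 3. A few genes that the rule or the lists hold are not reported here. The other called genes named, with Cd207, Awat2 and markers of other cells, were chosen after their values were seen. KO and RE share replicate numbers. The correlations of the 4 same-numbered pairs lay between -0.15 and 0.03, so the numbers were not taken as pairs. The closest of 12 pairs within groups differed by 16.5 times the sampling noise (mean count of 50 or more), so all libraries were counted singly. On simulated data (16457 genes, 3 against 3), 88 of 100 genes changed 2-fold and 100 of 100 changed 4-fold passed, and 5.05% of calls were false. For the change at time point 3 (18102 genes) the counts were 82 and 99 of 100, and 5.73% of calls were false. The changed genes were drawn only among those with a mean count over 100, and each gene was simulated apart from the others. The rates do not cover genes with fewer reads or a library that departs in many genes at once.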

Additional observations from a re-analysis of the deposited data

Results flagged for a closer look

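The library labelled KO replicate 1 stood far from the other 3 KO libraries of time point 3 in 23 of the genes named. In each, its gap to the nearest library took up most of the range of the group (Dixon's test at the 95% level). It was low at 6.46 CPM for Npas2, 16.9 CPM for Ttc9, 5.53 CPM for F3 and 21.1 CPM for Arntl. It was high for the clock genes, at 254 CPM for Nr1d1, 318 CPM for Nr1d2, 406 CPM for Per1, 215 CPM for Per3, 133 CPM for Dbp, 584 CPM for Tef, 10.8 CPM for Ciart, 392 CPM for Bhlhe40 and 6.44 CPM for Bhlhe41. It was also high at 12.9 CPM for Arsi, 22.6 CPM for Carns1, 18.2 CPM for Rsad1, 62.6 CPM for Deptor, 75.9 CPM for Cdc25b, 19.3 CPM for Spef1, 134 CPM for Ccnd1, 589.7 CPM for Ccnd2, 233 CPM for Prdx6 and 77.98 CPM for Gpt. Its clock genes were the reason to leave the library out, so the pattern is no separate evidence. The library labelled RE replicate 2 stood low for Panx3, a channel protein of keratinocytes, at 3.84 CPM against 8.68 to 9.30 CPM in the other RE libraries. In all, 24 of 162 sets of 4 values stood out in this way. The rate of about 1 in 20 by chance holds for sets that were not selected. Of the 81 genes checked, 68 were called without the 2 libraries left out, which favours close values among the remaining libraries. The count therefore cannot be set against that rate.

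Ifngr1 was lower in each RE library than in each KO library of time point 3 and higher in each at time point 4, where the RE mean exceeded the KO mean by 79.2 CPM. The difference between these 2 time points was not tested on its own.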

How the results depend on the processing

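Against 100 calls in the main comparison, 3 genes were called with all 8 libraries and 1 with the library labelled KO replicate 1 put back. Leaving out each library in turn gave between 23 and 130. DESeq2 called 354, and 275 were called without a filter on low counts. The filter at 5 CPM in 3 libraries gave 59 among fewer genes tested (10959). A spread shared by all 18 groups gave 46, of which 33 were among the main 100. The cause was not tested. RLE scaling gave 99, upper-quartile scaling 107, limma-voom 83 and RE replicate 2 put back 100. A shared spread without 5 libraries, an alternative chosen after seeing the data, gave 112 with 48.2% of them higher against 59% in the main comparison. Of these 112, only 54 were among the main 100. With the replicate number as a block, 6 genes were called over 8 libraries and 6 over the 6 libraries. Among the 6 libraries only the replicate numbers 3 and 4 occur in both groups, so that fit compares RE with KO within these numbers alone.

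Per1, not called, reversed to -0.036 with all 8 libraries, to -0.14 with KO replicate 1 put back and to -0.011 with the replicate block over 8 libraries, and ranged from -0.14 to 0.30 over the single libraries left out. Cry2 reversed to -0.072 with KO replicate 1 put back, and Awat2 ranged from -0.34 to 0.012. For Nr1d1 the change at time point 3 reversed to -2.63 with all 48 libraries and to -2.25 with the replicate block, which both hold the library labelled KO replicate 1. Of 1522 values of named genes under the alternatives, 942 stayed on their side of the threshold, 570 lost and 4 gained a call, and 6 reversed. The change at time point 3 gave 0 calls under each alternative run, and time point 5 gave 91 without RE replicate 3. With 3 libraries a group, differences under 2-fold may be missed, and genes under 1 CPM rest on few reads.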

Other observations

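Several called genes fall in none of the lists. Among enzymes of retinoid, steroid and arachidonic acid metabolism, Cyp2b19, a cytochrome P450 of mouse keratinocytes, was at 56.2 to 65.2 CPM in KO and at 91.0 to 103 CPM in RE (0.64 ± 0.08, edgeR adjusted p = 0.0157). Aldh1a7, an aldehyde dehydrogenase, was at 7.46 to 10.9 CPM in KO and at 15.5 to 19.6 CPM in RE (0.99 ± 0.16, adjusted p = 0.0444). Hsd3b2, of the steroid dehydrogenases, was at 0.474 to 0.570 CPM in KO and at 1.23 to 1.66 CPM in RE (1.47 ± 0.24, adjusted p = 0.0442), and belongs to a family of close copies. Gpt, an alanine aminotransferase, was at 40.5 to 43.5 CPM in KO and at 69.3 to 79.1 CPM in RE (0.83 ± 0.08, adjusted p = 0.0036). None of these 4 was called with all 8 libraries (adjusted p between 0.176 and 0.497).

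Genes of adhesion, matrix and signalling were called as well. Mcam, an adhesion molecule, was at 5.95 to 8.18 CPM in KO and at 12.6 to 14.6 CPM in RE (0.94 ± 0.15, adjusted p = 0.0345). Tgm2, a transglutaminase, was at 1.34 to 1.53 CPM in KO and at 3.49 to 6.52 CPM in RE (1.70 ± 0.27, adjusted p = 0.0389). Nrg4, a ligand of the ERBB4 receptor, was at 6.47 to 8.48 CPM in KO and at 13.04 to 15.1 CPM in RE (0.95 ± 0.14, adjusted p = 0.0318). Dusp4, a phosphatase of MAP kinases, and Tmem45b, a membrane protein, were higher in RE by 1.51 and 1.55 on the log2 scale. Frem1, a basement membrane protein, was at 0.0216 to 0.0834 CPM in KO and at 0.439 to 0.744 CPM in RE. Macf1, which links actin to microtubules, was at 1092 to 1312 CPM in KO and at 782 to 829 CPM in RE (-0.57 ± 0.09, adjusted p = 0.0391). These values were chosen after they were seen.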
